A study of Mus musculus with 9 samples.

Results

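The genes described here encode the 3 transforming growth factor beta (TGF-beta) ligands, their 3 receptors, 2 latent TGF-beta binding proteins and the TGF-beta-induced matrix protein. They were taken by symbol as Tgfb1, Tgfb2, Tgfb3, Tgfbr1, Tgfbr2, Tgfbr3, Ltbp1, Ltbp2 and Tgfbi, which are 9 of the 54232 genes in the count tables. RNA was sequenced from 9 libraries of wildtype CD1 mouse cortical neurons in 3 groups of 3 repeats, and CD1 is an outbred mouse stock. The control libraries carry the name PDL. PA is a peptide amphiphile, in which a lipid chain attached to a short peptide drives assembly into nanofibres. The PA libraries are named IKVAV, after a laminin motif that cells bind. The PA + PS2 libraries are named IKVAV plus PEDOT-S-OH, which puts a conductive polymer beside the same peptide. All 9 libraries, controls included, have the same treatment entry, peptide amphiphile, and the groups therefore follow the titles. The labels give no age, culture time or dose, and it is not stated whether each repeat came from its own culture. The p-values thus cover only library-to-library spread, which may be technical.

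TGF-beta ligands are secreted in a latent form, in which the propeptide stays wrapped around the mature dimer. Latent TGF-beta binding protein 1 ties this complex to the extracellular matrix, and integrins, proteases or thrombospondin 1 release the ligand. The free ligand binds the type II receptor Tgfbr2, which phosphorylates the type I receptor Tgfbr1, and Tgfbr1 in turn phosphorylates Smad2 and Smad3. In brain tissue the pathway is known for roles in neuronal survival, the microglial state, vessel stability and scar formation by glia and fibroblasts.

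Promoter sequences are shown for 1 ligand, 1 receptor and 1 latency protein: the ligand and receptor with the highest levels, and the member with the largest difference between groups. They come from RefSeq on build GRCm38.p6, which held promoters of 7 of the 9 members. Each is written 5′ to 3′ on the strand of the gene and holds only bases upstream of both the RefSeq and the GENCODE start. Capitals mark CAGAC or its reverse complement GTCTG, the core that SMAD proteins bind, and GGGCGG or its reverse complement CCGCCC, the GC box. No capital run overlaps another.
Tgfb2 (chr1:186705990-186706239, minus strand): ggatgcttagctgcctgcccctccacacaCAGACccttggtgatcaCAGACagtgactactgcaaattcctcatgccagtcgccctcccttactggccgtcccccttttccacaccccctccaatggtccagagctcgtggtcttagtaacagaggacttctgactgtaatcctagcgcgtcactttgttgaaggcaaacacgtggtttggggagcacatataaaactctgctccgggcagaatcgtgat
Tgfbr1 (chr4:47352972-47353221, plus strand): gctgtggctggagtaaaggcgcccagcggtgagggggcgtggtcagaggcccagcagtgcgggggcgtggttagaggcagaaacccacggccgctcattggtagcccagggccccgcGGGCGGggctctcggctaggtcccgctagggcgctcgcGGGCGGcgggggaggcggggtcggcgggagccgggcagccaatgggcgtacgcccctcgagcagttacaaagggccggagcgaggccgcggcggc
Ltbp2 (chr12:84876533-84876741, minus strand): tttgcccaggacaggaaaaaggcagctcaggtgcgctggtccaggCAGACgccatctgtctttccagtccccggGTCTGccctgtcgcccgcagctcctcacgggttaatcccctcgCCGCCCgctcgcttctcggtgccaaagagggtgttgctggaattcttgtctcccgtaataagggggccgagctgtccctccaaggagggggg

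In the 250 bases upstream of the RefSeq start, searched on both strands, the SMAD core occurred 2 times in Tgfb2, 2 times in Ltbp2 and 2 times in Tgfbi. It occurred 1 time each in Tgfbr2 and Ltbp1, and these letters were not in the windows of Tgfb1 and Tgfbr1. Of all 32851 RefSeq promoters, 42.2% held this core in a window of the same length. The GC box, held by 32.7% of promoters, occurred 5 times in Tgfb1, 2 times in Tgfbr1, 2 times in Ltbp2 and 1 time in Tgfbi. The Tgfb1 and Tgfbr1 windows had a GC content of 75.2% and 74.8%, and the Tgfb2 window 53.6%, beside a median of 52.4% over all promoters. Neither the AP-1 motif TGANTCA (in 6.75% of promoters) nor the TEAD motif GGAATG (in 12.6%) was found in the windows of the 7 members.

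Total counts were 20746851 to 27237398 per library, so a level of 1 CPM, the count scaled to the library total, stood for 20.8 to 26.6 reads. The neuronal markers, such as Tubb3 and Map2, summed to between 8960 and 11300 CPM in every library, which fits the labelled cell type. Marker sums of other cells were lower. Progenitor and cycling markers summed to between 296 and 676 CPM and astrocyte markers to between 184 and 304 CPM. Markers of mesenchymal cells (fibroblasts, pericytes and meninges) summed to between 14.9 and 209 CPM and those of microglia to between 7.9 and 14.6 CPM. The lists hold different genes and were not scaled for length, so their sums do not measure shares of cells. P2ry12, a defining marker of microglia, was at 0 in 7 of 9 libraries. In bulk RNA, fewer cells of a type and less RNA per cell cannot be told apart.

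Levels of different genes were compared per kilobase of merged exons, in CPM per kilobase. Tgfbr1 was the most abundant of the 9 genes, at 9.16 ± 1.72 CPM per kilobase (SD over all 9 libraries, range 6.13 to 11.4). Its lowest library lay above the highest library of every other member. Tgfb2 followed at 3.47 ± 0.502 and Tgfb3 at 2.52 ± 0.61 CPM per kilobase. Tgfb2 exceeded Tgfb3 in 9 of 9 libraries, although their ranges over libraries overlapped. A gap separated these 3 genes from the rest. The lowest Tgfb3 library, at 1.61 CPM per kilobase, lay above the highest Tgfbr3 library, at 0.422. Tgfbr3 (0.3 ± 0.0634), Ltbp1 (0.233 ± 0.0558), Tgfb1 (0.204 ± 0.0907), Tgfbr2 (0.136 ± 0.0396), Ltbp2 (0.124 ± 0.0957) and Tgfbi (0.043 ± 0.024) came next in CPM per kilobase, and each of these neighbours overlapped in range.

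**Figure D1:**
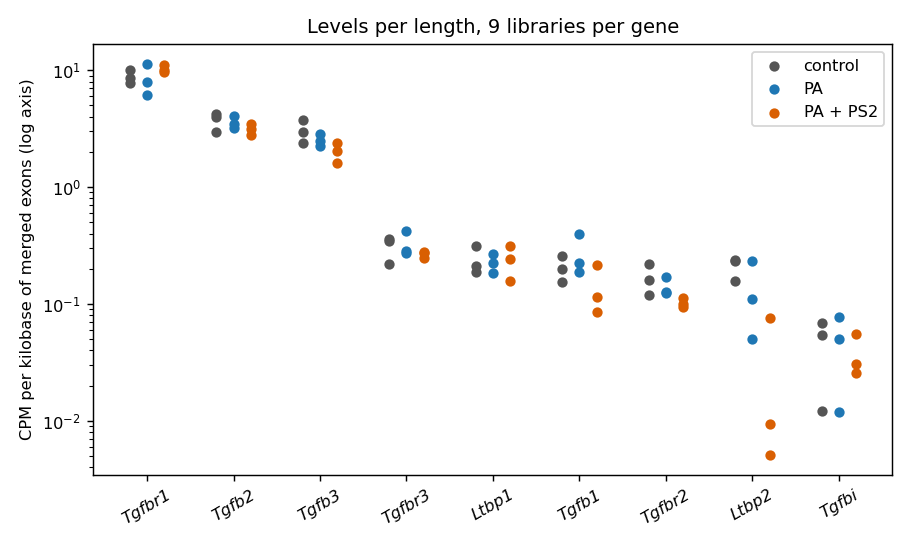
CPM per kilobase of merged exons (log axis) for the 9 genes, ordered by their mean over 9 libraries; each point is 1 library, coloured by group. Tgfbr1, Tgfb2 and Tgfb3 sit above 1.6 CPM per kilobase and the other 6 genes below 0.43, with the lowest points in Ltbp2 of PA + PS2.

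None of the members passed the test in any comparison, and the largest difference among them was in Ltbp2, which was lower in PA + PS2. The test was the quasi-likelihood test of edgeR on all 15712 genes that passed a filter on low counts, with Benjamini-Hochberg adjustment and a threshold of 0.05. Of the 9 members, 8 passed the filter, and Tgfbi, with 35 reads in all 9 libraries together, did not. For PA against control 0 of the 8 members passed, where 0% of all tested genes passed, and 0 had an unadjusted p under 0.05, as did 1.22% of all genes. In the contrast of PA + PS2 with control 0 of the 8 passed, where 0.0446% of all genes passed, and 2 had an unadjusted p under 0.05, as did 5.63% of all genes. A fit with the repeat number as a block, called blocked from here on, also passed 0 of the 8 in that contrast, where it passed 1.17% of all genes. Between PA + PS2 and PA 0 of the 8 passed, where 0% of all genes passed, and 1 had an unadjusted p under 0.05, as did 5.61% of all genes. DESeq2 passed 0, 1 and 0 members in these comparisons, the 1 being Ltbp2, where it passed 0%, 1.19% and 0.691% of the genes to which it gave an adjusted p. The limma-voom fit passed 0 members in each, where it passed 0%, 0.00636% and 0% of all genes. The 2 comparisons with control share the control libraries.

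**Figure D2:**
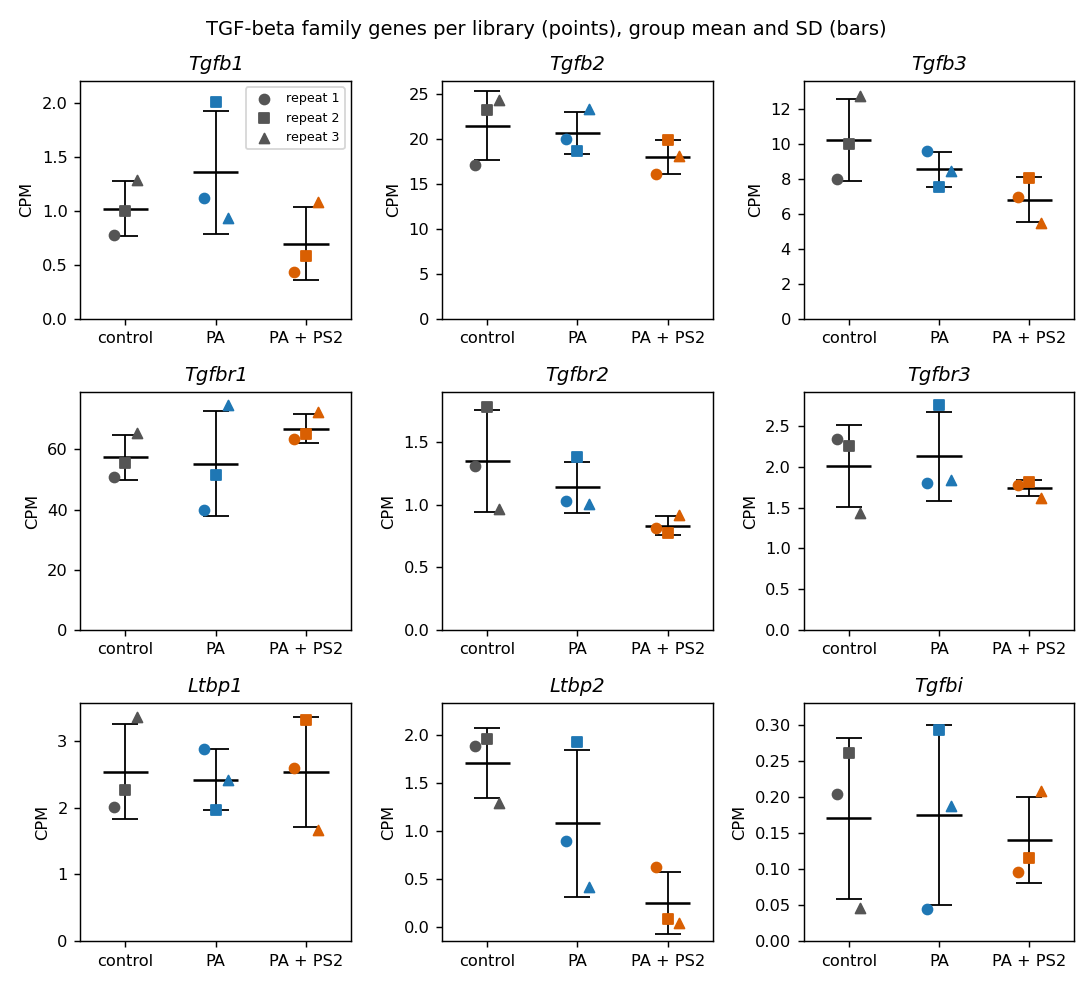
CPM per library for each of the 9 genes, with shapes for the repeat number, a line at the group mean and bars of 1 SD; each panel has its own linear axis. In Ltbp2 all 3 PA + PS2 libraries (0.0416 to 0.625 CPM) lie below all 3 control libraries (1.29 to 1.96 CPM), while the groups overlap for Tgfb1, Tgfb2, Tgfb3, Tgfbr1, Tgfbr3, Ltbp1 and Tgfbi.

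Among the ligands, Tgfb2 and Tgfb3 made up nearly all of the transcripts per length. Of the summed ligand level per kilobase, Tgfb2 took 56.3 ± 3.65%, Tgfb3 40.4 ± 3.96% and Tgfb1 3.3 ± 1.52% (SD over 9 libraries). The Tgfb2 share was 51.2% to 55.8% in control, 53.1% to 59.9% in PA and 56.5% to 63.2% in PA + PS2, so every PA + PS2 library had a higher Tgfb2 share than every control library. These shares were not tested.

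Tgfb3, the isoform known for its role in palate and lung development (ENSMUSG00000021253, mm10 chromosome 12, 86056745 to 86079041, minus strand), had 7.97, 10 and 12.7 CPM in control repeats 1, 2 and 3. It had 9.58, 7.54 and 8.46 CPM in PA and 6.93, 8.02 and 5.45 CPM in PA + PS2. PA + PS2 repeats 1 and 3 lay below every control library, and PA + PS2 repeat 2 lay just above control repeat 1. The log2 fold change of PA + PS2 against control was −0.59 ± 0.21 (SE, edgeR adjusted p = 0.52, unadjusted p = 0.0161), with a 95% interval from −1.04 to −0.13. Within repeats 1, 2 and 3 the difference in log2 CPM was −0.2, −0.32 and −1.2, so the sign was shared and the size was not. PA stood at −0.26 ± 0.21 against control (edgeR adjusted p = 1), and PA + PS2 at −0.33 ± 0.21 against PA (edgeR adjusted p = 1).

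Tgfb2, which is needed for heart and skeletal development (ENSMUSG00000039239, chromosome 1, 186622792 to 186705989, minus strand), had 17.1, 23.2 and 24.3 CPM in control. It had 20, 18.7 and 23.3 CPM in PA and 16.1, 19.9 and 18.1 CPM in PA + PS2. Control repeat 1 was the lowest control library and the 3 groups overlapped. PA + PS2 stood at −0.25 ± 0.16 against control (edgeR adjusted p = 1, 95% interval −0.59 to 0.09) and was the lower of the pair in 3 of 3 repeats. Against PA it stood at −0.20 ± 0.16, and PA stood at −0.06 ± 0.16 against control (edgeR adjusted p = 1 for both).

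Tgfb1, the ligand that immune cells and platelets release in quantity (ENSMUSG00000002603, chromosome 7, 25687002 to 25705077, plus strand), rested on 9 to 48 reads per library. It had 0.781, 1 and 1.29 CPM in control, 1.12, 2.01 and 0.94 CPM in PA, and 0.433, 0.578 and 1.08 CPM in PA + PS2. PA repeat 2 was the highest library and PA + PS2 repeat 1 the lowest, at 9 reads. PA + PS2 stood at −0.95 ± 0.44 against PA (edgeR adjusted p = 0.91, 95% interval −1.91 to 0.02) and was lower in repeats 1 and 2 but not in repeat 3 (−1.22, −1.66 and 0.19). Against control PA stood at 0.41 ± 0.43 and PA + PS2 at −0.54 ± 0.45 (edgeR adjusted p = 1 for both). At this depth a 2-fold lower level of Tgfb1 in PA + PS2 than in control lies inside the 95% interval, −1.52 to 0.45 on the log2 scale.

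Among the receptors, the type I receptor far exceeded the type II receptor per length. Of the summed receptor level per kilobase, Tgfbr1 took 95.3 ± 1.6%, Tgfbr3 3.26 ± 1.08% and Tgfbr2 1.48 ± 0.575% (SD over 9 libraries). The Tgfbr2 share averaged 1.83 ± 0.638% in control, 1.66 ± 0.53% in PA and 0.96 ± 0.0439% in PA + PS2 (SD, n = 3), so that the PA + PS2 libraries held the 3 lowest shares. These shares were not tested.

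Tgfbr1 (ENSMUSG00000007613, chromosome 4, 47353222 to 47414931, plus strand) had 50.8, 55.6 and 65.5 CPM in control, 40, 51.4 and 74.6 CPM in PA, and 63.3, 65.1 and 72.4 CPM in PA + PS2. It was the only tested member with a log2 fold change above 0 for PA + PS2 against control, at 0.23 ± 0.19 (edgeR adjusted p = 1, 95% interval −0.19 to 0.64). Its level was higher with PA + PS2 in 3 of 3 repeats, by 0.32, 0.23 and 0.14 in log2 CPM. The PA libraries spread most, and PA stood at −0.05 ± 0.19 against control, with PA + PS2 at 0.27 ± 0.19 against PA (edgeR adjusted p = 1 for both).

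Tgfbr2 (ENSMUSG00000032440, chromosome 9, 116084293 to 116175360, minus strand) had 1.31, 1.78 and 0.967 CPM in control, 1.03, 1.38 and 1.01 CPM in PA, and 0.818, 0.771 and 0.915 CPM in PA + PS2. Each PA + PS2 library lay below each library of the other groups, although 0.915 CPM in PA + PS2 and 0.967 CPM in control are 22 and 21 reads. PA + PS2 stood at −0.70 ± 0.34 against control (edgeR adjusted p = 0.96, 95% interval −1.44 to 0.04) and at −0.45 ± 0.34 against PA (edgeR adjusted p = 1). Within repeats the difference from control was −0.63, −1.13 and −0.07 in log2 CPM. PA stood at −0.25 ± 0.33 against control (edgeR adjusted p = 1).

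Tgfbr3, also called betaglycan, a coreceptor that presents TGF-beta 2 to the type II receptor (ENSMUSG00000029287, chromosome 5, 107106570 to 107289629, minus strand), had 2.34, 2.26 and 1.43 CPM in control. It had 1.8, 2.76 and 1.84 CPM in PA and 1.78, 1.81 and 1.62 CPM in PA + PS2. The groups overlapped in every comparison. The log2 fold changes were 0.08 ± 0.29 for PA against control, −0.21 ± 0.29 for PA + PS2 against control and −0.30 ± 0.29 for PA + PS2 against PA (edgeR adjusted p = 1 for each).

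Of the latency proteins, Ltbp2 was low in PA + PS2 and the Ltbp1 group means lay within 1 SD of each other. Ltbp2 is a relative of the fibrillins that sits on elastic microfibrils and, unlike Ltbp1, does not bind latent TGF-beta (ENSMUSG00000002020, chromosome 12, 84783212 to 84876532, minus strand). It had 46, 45 and 28 reads in control repeats 1, 2 and 3, or 1.89, 1.96 and 1.29 CPM. It had 20, 46 and 11 reads in PA, or 0.9, 1.93 and 0.413 CPM. In PA + PS2 it had 13, 2 and 1 reads, or 0.625, 0.0771 and 0.0416 CPM. PA + PS2 repeat 1 was several times higher than PA + PS2 repeats 2 and 3, and all 3 lay below every control library.

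The log2 fold change of Ltbp2 for PA + PS2 against control was −2.84 ± 0.77 (edgeR adjusted p = 0.23, unadjusted p = 0.00332), with a 95% interval from −4.53 to −1.15. It was the 10th lowest log2 fold change among 15712 tested genes and had the 227th smallest p. With the reads of each group summed, 16 in PA + PS2 against 119 in control, the ratio scaled for depth was 0.131, with a 95% Poisson interval from 0.0726 to 0.222 that covers counting error only. Within repeats 1, 2 and 3 the difference in log2 CPM was −1.48, −3.66 and −3.44. Without PA + PS2 repeat 1 the log2 fold change was −4.71 (edgeR adjusted p = 0.18), and without PA + PS2 repeat 3 it was −2.34 (edgeR adjusted p = 0.74). The blocked fit gave −2.97 ± 0.66 (edgeR adjusted p = 0.06). DESeq2 passed Ltbp2 with an adjusted p = 0.0156 and edgeR without a filter on low counts with an adjusted p = 8.68e-06, at log2 fold changes of −2.84 in both. The fit without a filter passed 365 genes in all.

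The other comparisons of Ltbp2 were less separated. PA + PS2 stood at −2.17 ± 0.79 against PA (edgeR adjusted p = 0.61, unadjusted p = 0.0176), and PA + PS2 repeat 1, at 0.625 CPM, lay above PA repeat 3, at 0.413 CPM. Ltbp2 passed in that comparison without a filter on low counts (edgeR adjusted p = 0.00444), as 1 of 330 genes. Without PA + PS2 repeat 1 the value was −4.04 and without PA repeat 2 it was −1.43 (edgeR adjusted p = 0.79 and 0.98). PA stood at −0.67 ± 0.65 against control (edgeR adjusted p = 1, 95% interval −2.10 to 0.76), and without PA repeat 2 at −1.41. PA repeat 2 lay inside the range of the controls, and PA repeats 1 and 3 lay below them.

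**Figure D3:**
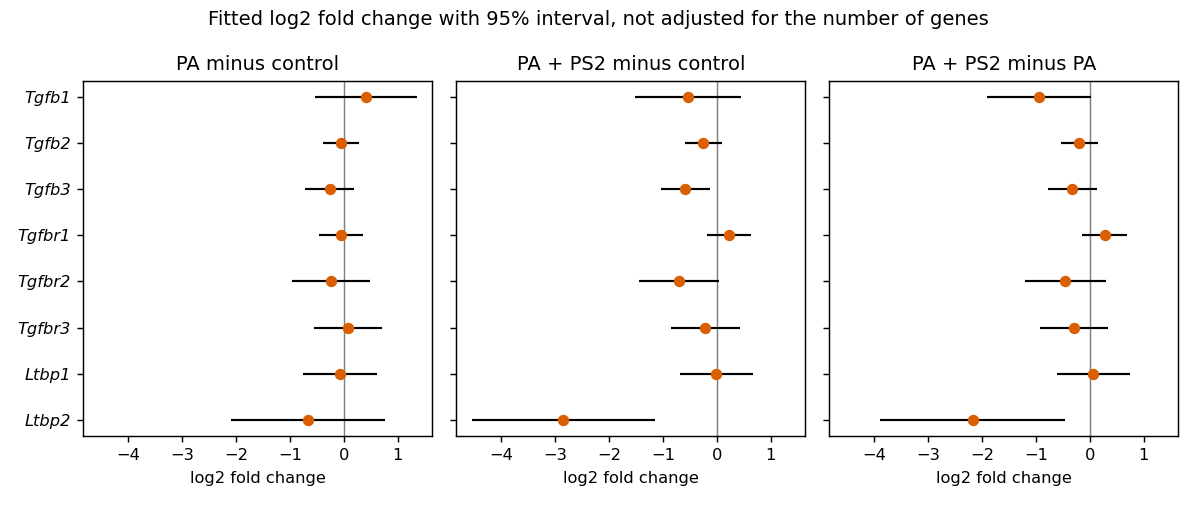
Fitted log2 fold change (points) of the 8 tested members in the 3 comparisons, with 95% intervals that are not adjusted for the number of genes. For PA + PS2 against control the intervals of Tgfb3 (−1.04 to −0.13) and Ltbp2 (−4.53 to −1.15) lie below 0, and neither gene passed after adjustment.

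Ltbp1 (ENSMUSG00000001870, chromosome 17, 75005568 to 75392512, plus strand) had 2.01, 2.26 and 3.36 CPM in control, 2.88, 1.97 and 2.41 CPM in PA, and 2.6, 3.32 and 1.66 CPM in PA + PS2. Its group means were 2.54 ± 0.717, 2.42 ± 0.455 and 2.53 ± 0.828 CPM (SD, n = 3). Of the 8 members it had the log2 fold change closest to 0 for PA + PS2 against control, at −0.01 ± 0.31 (edgeR adjusted p = 1), with a 95% interval from −0.69 to 0.67. The difference within repeats was 0.35, 0.54 and −0.98 in log2 CPM, so the repeats did not share a sign.

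Tgfbi, a secreted adhesion protein of the matrix first found as a gene induced by TGF-beta (ENSMUSG00000035493, chromosome 13, 56609523 to 56639562, plus strand), was near the limit of detection. It had 5, 6 and 1 reads in control, 1, 7 and 5 reads in PA, and 2, 3 and 5 reads in PA + PS2. The summed reads were 12, 13 and 10 per group. The ratio of PA + PS2 to control was 0.813, with a 95% Poisson interval from 0.315 to 2.05 for counting error only. No difference was detectable at this depth. In the edgeR fit without a filter on low counts the log2 fold changes were 0.04, −0.27 and −0.31 for PA against control, PA + PS2 against control and PA + PS2 against PA (adjusted p = 1 for each).

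Over the 8 tested members the median log2 fold change was −0.07 for PA against control, −0.40 for PA + PS2 against control and −0.31 for PA + PS2 against PA. Over all 15712 tested genes it was −0.01, 0.00 and 0.01. Of the 8, 7 were below 0 for PA + PS2 against control, as were 7884 of all genes. The groups did not overlap for 2 of 8 members, Tgfbr2 and Ltbp2, both lower, against 6.54% of all tested genes that were lower without overlap. Tgfbr2 was also the 1 of 8 that was lower without overlap for PA + PS2 against PA, as were 6.32% of all genes, and for PA against control 0 of 8 were without overlap in either direction, as were 4.04% of all genes.

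Other genes of the pathway were taken from lists by function. With PA + PS2 against control, genes of latency and activation had a median log2 fold change of −0.48 over 15 tested members, with 13 below 0, 0 higher and 1 lower by the test (0.0446% of all genes passed). In the blocked fit 5 were lower, beside 1.06% of all genes. The gene that fell was Thbs1, a secreted activator of latent TGF-beta, by 1.08 ± 0.14 on the log2 scale (edgeR adjusted p = 0.034), from 98.8, 101 and 136 CPM in control to 53.1, 58.4 and 46.8 CPM. Without control repeat 2 or 3 or PA + PS2 repeat 1, no gene passed in this comparison, Thbs1 included. The others with the smallest p were Fbn1, the fibrillin to which latent complexes attach, and the integrin subunits Itgb5 and Itgav, which bind the latent propeptide. They stood at −0.81 ± 0.15, −1.42 ± 0.28 and −0.91 ± 0.24 (edgeR adjusted p = 0.083, 0.097 and 0.2, or blocked 0.021, 0.01 and 0.048). In each of these 4 genes, named for their small p, all PA + PS2 libraries lay below all controls. The same held for 8 of the 15 tested genes of the list and for 6.54% of all tested genes.

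Over 21 tested genes of signal transduction, most of them intracellular, the median was 0.02, with 12 above 0. None passed, where 0.0446% of all genes did, and 1 was lower in the blocked fit, as were 1.06% of all genes. Smad2, a mediator phosphorylated by Tgfbr1, had 80.8 to 82.5 CPM in control and 77.8 to 81.5 CPM in PA + PS2. The 1 gene that passed with the block was Eng, a coreceptor found mainly on endothelial cells, at −1.53 ± 0.36 (edgeR adjusted p = 0.16, or blocked 0.037). Next by p were Smad6, Pmepa1 and Smad7, inhibitors that act as feedback on TGF-beta or BMP signals. They stood at 0.71 ± 0.34, 0.22 ± 0.12 and 0.26 ± 0.16 (edgeR adjusted p = 0.94, 1 and 1), and each was higher in all PA + PS2 libraries than in all controls, as were 5.38% of all tested genes.

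Genes known as targets of TGF-beta had a median of −0.98 over 22 tested members, with 19 below 0, and 0 passed (9 lower and 0 higher with the repeat block, beside 1.06% and 0.115% of all genes). Serpinh1, a collagen chaperone, stood at −1.60 ± 0.29 (edgeR adjusted p = 0.083, or blocked 0.015). Acta2, the smooth muscle actin, and Itga5, a fibronectin receptor subunit, stood at −2.24 ± 0.46 and −1.60 ± 0.34 (edgeR adjusted p = 0.11 for both, or blocked 0.03 and 0.015). The list is mixed. The 3 genes above 0 were Pmepa1, Skil and Smad7, at 0.22 ± 0.12, 0.21 ± 0.13 and 0.26 ± 0.16. These 3 are also in the signal transduction list, and Acta2, Col1a1, Col1a2, Col3a1 and Tagln are also mesenchymal markers.

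In the related activin and BMP family the median was −0.07 over 28 tested genes, and 0 passed, where 0.0446% of all genes did. In the blocked fit 1 was higher and 2 were lower, as were 0.115% and 1.06% of all genes. Bmp6, a BMP ligand, stood at −1.43 ± 0.23 (edgeR adjusted p = 0.054, or blocked 0.019), and Bmp7, another, at −1.54 ± 0.32 (edgeR adjusted p = 0.11, or blocked 0.056). Fst, which encodes the activin antagonist follistatin, was the 1 higher with the block. It stood at 0.78 ± 0.17 (edgeR adjusted p = 0.11, or blocked 0.012), with 29.2, 26.7 and 33.9 CPM in control and 43.1, 52.9 and 58.4 CPM in PA + PS2. Grem1, a BMP antagonist, stood at −0.90 ± 0.22 (edgeR adjusted p = 0.17, or blocked 0.077).

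**Figure D4:**
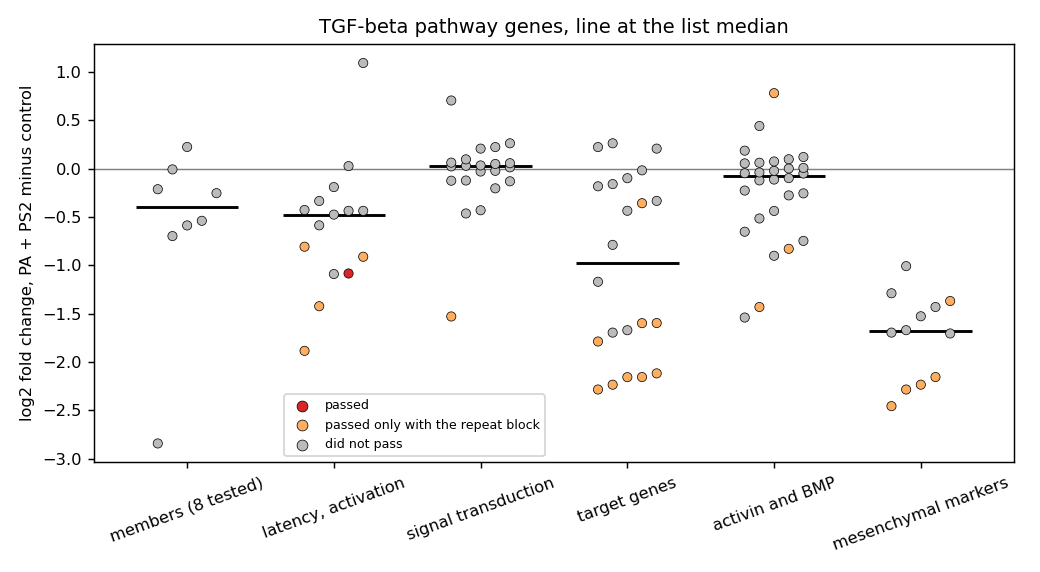
Log2 fold change of PA + PS2 against control for each tested gene (points) of the members and of 5 lists, with a line at each median; colour shows whether the gene passed the edgeR test, passed only with the repeat block, or did not pass. The medians are −0.40 for the members, −0.48 for latency and activation, 0.02 for signal transduction, −0.98 for target genes, −0.07 for activins and BMPs and −1.68 for mesenchymal markers.

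In the other 2 comparisons no gene of these 4 lists passed the edgeR test, where 0% of all tested genes passed. For PA against control the medians were −0.07 for latency and activation, −0.05 for signal transduction, −0.26 for target genes and −0.03 for activins and BMPs. The smallest p in the target list was that of Lox, a collagen cross-linking enzyme, at −1.22 ± 0.46 (edgeR adjusted p = 1). In the latency list it was that of Thbs1, at −0.38 ± 0.14, and in the activin and BMP list that of Bmp4, at −1.64 ± 0.54. All PA libraries of Thbs1 and Bmp4 lay below all controls, where 4.04% of all genes were without overlap in either direction. Between PA + PS2 and PA the medians were −0.56, 0.08, −0.34 and 0.02 in the same order. Thbs1 stood at −0.71 ± 0.14 (edgeR adjusted p = 0.24).

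Markers of other cells differed between the groups beside these values. The mesenchymal markers had a median log2 fold change of −1.68 for PA + PS2 against control, with 12 of 12 tested below 0, as were 7884 of all 15712 genes. None of the 12 passed, and 5 were lower in the blocked fit, as were 1.06% of all genes. Pdgfra, 1 of those 5, and Cspg4 are also in the list of oligodendrocyte lineage markers. The mesenchymal markers summed to 143 to 209 CPM in control, 98.2 to 173 CPM in PA and 14.9 to 60.8 CPM in PA + PS2. Acta2 and Col1a1, which are also in the target list, gave the most in control, with means of 79 and 35.9 CPM. None of these 13 listed markers was at 0 in all libraries. PA + PS2 repeat 3 had the lowest mesenchymal sum and the lowest Ltbp2. PA + PS2 repeats 1 and 2 had sums of 60.8 and 59 CPM and Ltbp2 at 0.625 and 0.0771 CPM, which are 13 and 2 reads. Single markers went either way between these libraries: Acta2 had 19.4 and 26.3 CPM and Col1a2 had 7.31 and 1.85 CPM in repeats 1 and 2. Microglial markers summed to 12.9 to 14.6 CPM in control and 7.9 to 10.6 CPM in PA + PS2, with 6 of 8 tested below 0. Endothelial markers summed to 5.87 to 9.02 CPM in control and 2.08 to 4.66 CPM in PA + PS2, of which Kdr gave the most. Only 3 were tested and none passed: Kdr and Flt1 stood at −1.58 and −1.25, and Pecam1 went the other way, at 0.48. Ly6c1 was at 0 in all libraries. Their part in the values of Ltbp2, Tgfbr2, Tgfb3 and the pathway lists was not tested. The progenitor and cycling markers, at 371 to 676 CPM in control and 296 to 335 CPM in PA + PS2, were also lower. Astrocyte markers summed to 184 to 304 CPM in control, 246 to 293 CPM in PA and 187 to 225 CPM in PA + PS2. Of 9 tested oligodendrocyte lineage markers, 6 were below 0 for PA + PS2 against control. In the blocked fit 3 of them, Olig1, Olig2 and Pdgfra, were lower, as were 1.06% of all genes. The part of these lists was not tested either.

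Genes with the pattern most like each member were ranked by Pearson correlation of log2 CPM over the 9 libraries, among 12264 protein-coding genes with a mean of at least 1 CPM. The libraries share their group and repeat, and the top 3 of so many genes are high in any case, so these values only describe likeness. For Ltbp2 they were Rcn3, a calcium-binding protein of the secretory pathway (0.971), Igsf9b, a synaptic adhesion protein (0.97) and Col18a1, a basement membrane collagen (0.967). Col18a1 had 13.2, 15.1 and 13.8 CPM in control, 7.65, 13.2 and 4.96 CPM in PA, and 4.76, 3.08 and 1.54 CPM in PA + PS2. As in Ltbp2, PA repeat 2 sat with the controls and PA + PS2 repeat 1 was the highest of its group.

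**Figure D5:**
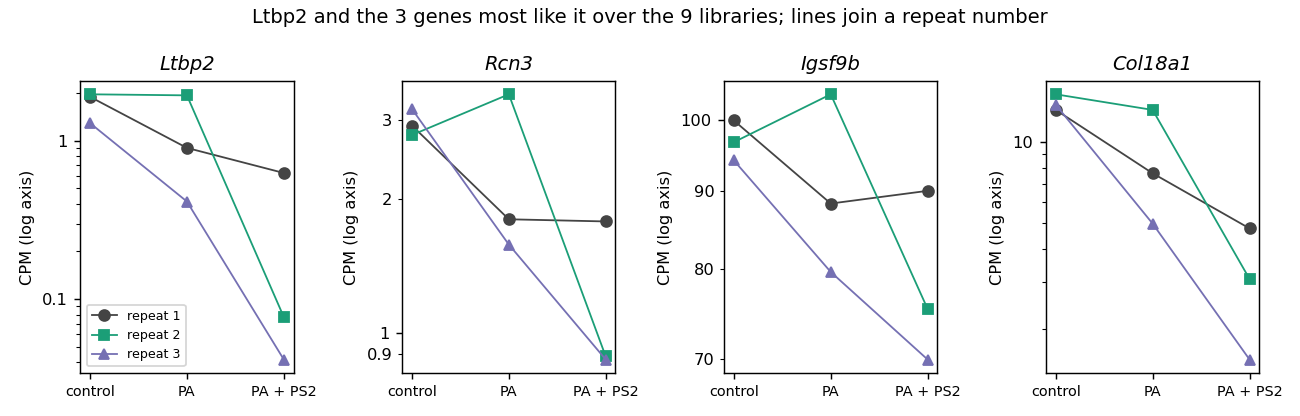
CPM (log axis, a different range in each panel) of Ltbp2 and the 3 genes most like it, with lines that join libraries of 1 repeat number across the groups. Igsf9b spans a narrow range (69.9 to 104 CPM) beside Ltbp2 (0.0416 to 1.96 CPM), although both order the libraries in a similar way.

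For Tgfbr1 the closest were Fam49b (0.984), Ugcg, the first enzyme of glucosylceramide synthesis (0.982), and Eif4g2, a translation factor (0.978). Tgfb3 was closest to Tubb6, a beta-tubulin (0.928), Wasf2, an actin regulator (0.918), and Ephx1, an epoxide hydrolase (0.914). Tgfb2 was closest to the transcription factor gene Foxo1 (0.929), Bard1 (0.908) and Slc4a4, a bicarbonate transporter of astrocytes (0.908). Tgfbr2 was closest to Selenoh (0.966), Ube2l6 (0.945) and Cln6 (0.934), and Tgfbr3 to Arg2 (0.947), Slc24a4 (0.941) and Fam163a (0.94). Tgfb1 was closest to Dna2 (0.922), Peg12 (0.916) and Ublcp1 (0.911), and Ltbp1 to Depdc5 (0.944), Disp1 (0.902) and Zfp111 (0.855). Among the members themselves the highest correlations were those of Tgfb2 with Tgfb3 (0.75), Tgfbr2 with Ltbp2 (0.74) and Tgfbr2 with Tgfbr3 (0.72), and the lowest was that of Tgfbr1 with Ltbp2 (−0.59).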

How the data were processed

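The deposited files hold raw counts per Ensembl gene, 1 file per library, with no normalization. The submitters' processing notes list build mm10 and, with no role given, DESeq2 1.14.1, HTSeq 2.0.2, STAR 2.7.5 and cutadapt 4.2. The annotation release and strand setting are not given in the sources used here, so reads of genes that overlap on opposite strands cannot be told apart. Of the members, Tgfb2, Tgfb3 and Ltbp2 share exon bases with opposite-strand genes, which had at most 13 reads each over all libraries. GENCODE M21, on the same build, named 54165 of the 54232 identifiers and gave positions and merged exon lengths.

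CPM and log2 fold changes were computed with edgeR 4.0.16 (R 4.3.3): TMM scaling of library sizes, filterByExpr (minimum count 10, minimum total 15), and a 2-sided quasi-likelihood test on all 9 libraries with 6 residual degrees of freedom. The 15712 genes tested held 99.9% of counts. Standard errors are the absolute log2 fold change over the root of F. Log2 CPM used a prior count of 2. On simulated counts for 15433 genes, the test for PA + PS2 against control recovered 89% of genes changed 2-fold and 100% of those changed 4-fold, all at 1 CPM or more. Every simulated gene had the same spread, a coefficient of variation of 16.6% beyond counting error, and no repeat effect. These shares therefore do not carry over to genes with a wider spread, such as Ltbp2, whose 7.17-fold difference did not pass. Alternatives were DESeq2 1.42.0, limma-voom (limma 3.58.1), other scalings and filters, fits without each library, and a replicate block.

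Libraries with the same repeat number deviated together from their group means, with correlations of 0.42, 0.37 and 0.28 between PA and control and 0.18, 0.22 and 0.13 between PA + PS2 and control. The labels leave the meaning of the repeat numbers unstated, so this pairing rests on those correlations and stays uncertain. Blocked values of single genes are printed only for PA + PS2 against control. Named genes were all 9 members, up to 4 genes per pathway list with the smallest p in a comparison, and the 3 genes most like each member; Smad2 was chosen after its values were seen. 1 gene of the target list that this rule would name is not reported here. The members and lists were chosen with earlier results of these data known. No set test was run.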

Additional observations from a re-analysis of the deposited data

How the results depend on the processing

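The number of genes passing for PA + PS2 against control was 7, and it depended on the fit: 184 with the replicate block, 17 with RLE scaling, 365 without a filter on low counts, 1 with limma-voom, 208 with DESeq2, 28 with only the 2 groups compared and 125 without all 3 libraries of repeat 1 (a setting chosen after seeing the data). Leaving out 1 library gave 0 to 175, with 175 without control repeat 1, 18 without PA repeat 1, 2 without PA + PS2 repeat 2, 1 without PA + PS2 repeat 3 and 0 without control repeat 2, control repeat 3 or PA + PS2 repeat 1. For PA + PS2 against PA the number was 0, and 57 with the replicate block, 330 without a filter, 121 with DESeq2, 3 without all of repeat 1 and 0 to 37 with 1 library left out (37 without control repeat 1 and 2 without PA + PS2 repeat 2). In that comparison the correlations of same-numbered libraries were 0.015, 0.29 and 0.3. The value of repeat 1 was near 0, while those of repeats 2 and 3 lay above the values between PA + PS2 and control. The correlations therefore do not settle in which comparison the repeat numbers pair the libraries. For PA + PS2 against PA the block passed 1 gene lower in each of the latency and target lists, beside 53 lower among all 15712 tested genes. It passed 3 lower in the oligodendrocyte lineage list and 2 lower in each of the mesenchymal and the progenitor and cycling lists. For PA against control the number was 0, and 23 without a filter. Members passing moved from 0 to 1, which was Ltbp2, with DESeq2 and without a filter for PA + PS2 against control, and without a filter for PA + PS2 against PA. The replicate block changed no call of a member. The cause of these shifts was not tested.

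Of 432 alternative values of member log2 fold changes, 414 kept their sign and side of the threshold, 3 newly passed and 15 changed sign, all 15 at an adjusted p of 0.941 or more. With 1 library left out, these ranges crossed 0: for PA against control Tgfb2 −0.197 to 0.037, Tgfbr1 −0.32 to 0.14, Tgfbr3 −0.15 to 0.21 and Ltbp1 −0.22 to 0.18, and for Ltbp1 −0.26 to 0.24 for PA + PS2 against control and −0.19 to 0.30 for PA + PS2 against PA. Ltbp1 stood at 0.002 for PA + PS2 against control without a filter, and Tgfbr1 at 0.059 for PA against control without all of repeat 1. The low counts of Ltbp2 in PA + PS2 and of Tgfbi in all libraries limit their precision.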
